A study of Mus musculus with 4 samples.

Results

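The genes described here are 10 regulators of pluripotency and of the early germ line, Pou5f1, Nanog, Sox2, Utf1, Lin28a, Dppa3, Dppa5a, Prdm1, Prdm14 and Tfap2c, taken by symbol from the 40999 features counted in mouse fetal gonads. All 10 were listed and all 10 kept enough counts to be compared in every pair of libraries. The animals were wild-type C57BL/6J, with no transgene, deletion or treatment, and the groups were 4 embryonic days, from E11.5 through E14.5. Each pool combined the gonads of 2 litters, no fewer than 6 from males and 6 from females, so XX and XY gonads cannot be separated in any value below. The E11.5 pool was the whole genital ridge with its mesonephros, the transient kidney beside the gonad, whereas the mesonephros had been dissected away in the other 3 pools. Each pool gave 1 stranded total RNA library, so no difference between days has a replicate check, and each comparison is one between libraries.

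Primordial germ cells are set apart from somatic cells early in the embryo, when Prdm1 and Prdm14 act with Tfap2c to silence the somatic program, and they then reach the genital ridge while they express much of the pluripotency network of embryonic stem cells. Soon after they have settled, they switch off this network as they start meiosis in the ovary or enter arrest in the testis. The members fall into core transcription factors of pluripotency (Pou5f1, Nanog, Sox2), factors that act beside them (Utf1, Lin28a), small proteins typical of pluripotent and germ cells (Dppa3, Dppa5a) and specification factors (Prdm1, Prdm14, Tfap2c).

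The libraries held between 25593453 counts at E12.5 and 31752562 counts at E13.5. Ribosomal RNA took 8.72% to 17.7% of the counts up to E13.5 and 48.9% at E14.5, so counts were scaled by TMM, which sets the typical gene to no change, and levels below are CPM, counts divided by the TMM-scaled library size, unless given as TPM. Scaling on total counts alone would put the median gene 1.07 lower on the log2 scale at E14.5 than at E13.5, and the changes here are relative to the typical gene. Markers of the gonad were present in every library, with Wt1 at 3371 to 10724 counts and Gata4 at 4026 to 11790. Intervals are exact 95% intervals of the counts and cover counting error only. In a pool of mixed cells, fewer germ cells and less RNA per germ cell cannot be told apart.

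After TMM scaling all 10 members were low at E11.5, high on the next 2 days, and spread apart at E14.5. At E11.5 they stood at 8.17% to 30.8% of their own highest level, with a median of 15.1%. The highest library was E12.5 for 8 members and E13.5 for Lin28a and Dppa3. At E14.5 the range ran from 16.7% for Tfap2c to 89.9% for Dppa3, with a median of 46.8%. Summed over the 10 genes, the levels of the 4 days in order were 49.7, 292, 251 and 166.

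**Figure D1:**
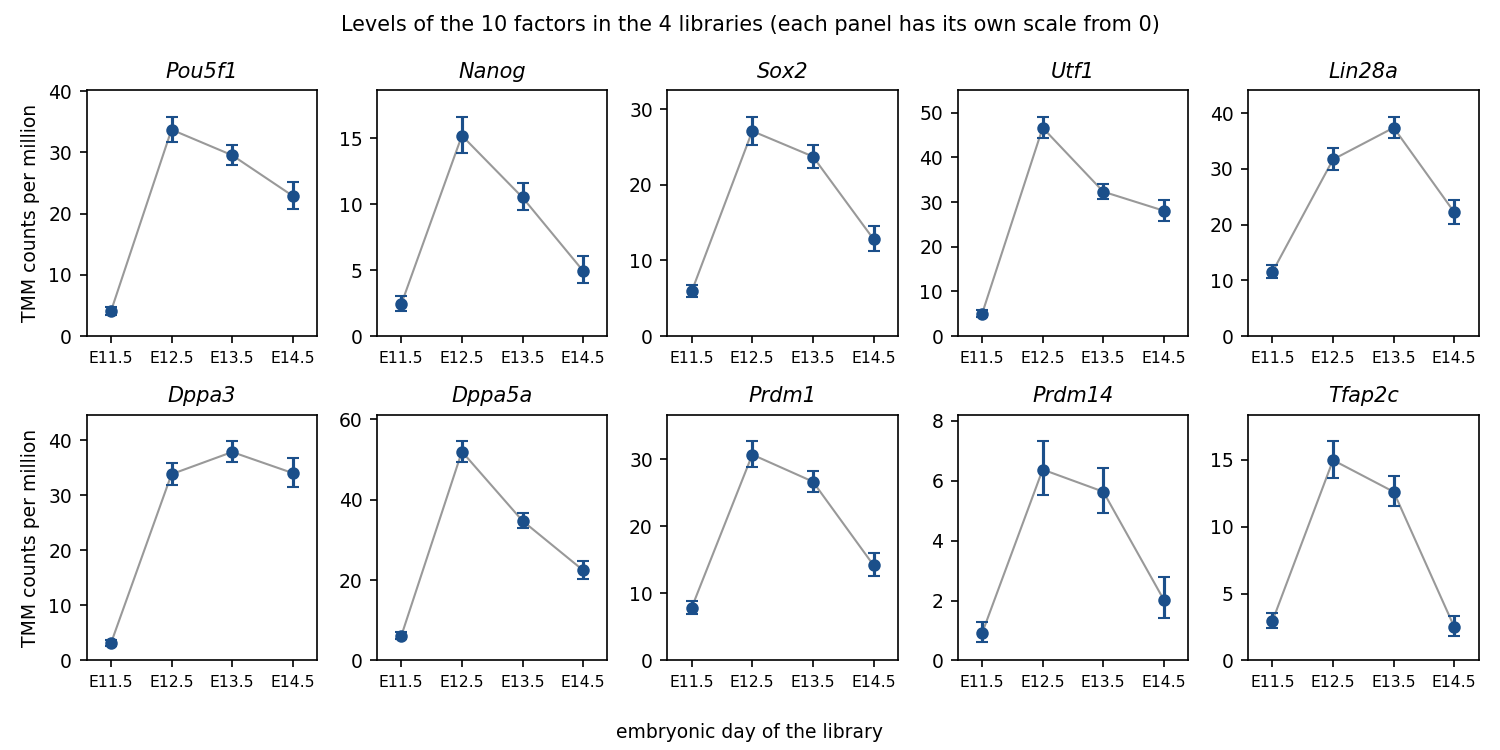
Level of each of the 10 factors (TMM-scaled CPM, y axis from 0, own scale per panel) in the 4 libraries (x axis, embryonic day), with points for the libraries and bars for the 95% counting interval. On this scale every gene is lowest at E11.5 except Tfap2c, which is about as low at E14.5 (2.50) as at E11.5 (2.95), while Dppa3 at E14.5 (34.0) stays near its E12.5 level (33.8).

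Pou5f1 encodes OCT4, the POU factor required for pluripotency and for germ cell survival, and lies on chromosome 17 (mm10 chr17:35506032-35510777, plus strand, 6 exon blocks). It had 138, 1058, 1169 and 431 counts in the libraries from E11.5 to E14.5, which were levels of 4.03, 33.7, 29.5 and 22.9. The 2 middle libraries were the highest, and E14.5 remained well above E11.5. Between E11.5 and E12.5 Pou5f1 rose 8.37-fold (log2 3.07, interval 2.81 to 3.33). The log2 change was −0.19 (−0.31 to −0.07) at E13.5 and −0.35 (−0.51 to −0.19) at E14.5, each relative to the day before and neither past 2-fold.

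Nanog, the homeobox factor that stabilizes the pluripotent state, lies on chromosome 6 (chr6:122706999-122714633, plus strand, 5 exon blocks). Its counts were 83, 477, 416 and 93 from E11.5 to E14.5, with levels of 2.42, 15.2, 10.5 and 4.94. E12.5 was the highest library, and the levels stepped down on each later day. Nanog rose 6.27-fold at E12.5 (log2 2.65, interval 2.31 to 3.01), had a log2 change of −0.53 (−0.73 to −0.34) at E13.5, and fell 2.10-fold at E14.5 (log2 −1.07, interval −1.41 to −0.74). This interval includes changes short of 2-fold. Against E12.5, the E14.5 level was lower by 1.61 on the log2 scale (log2 change −1.61, interval −1.95 to −1.29).

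Sox2, the HMG box partner of OCT4, is a gene of 1 exon on chromosome 3 (chr3:34650005-34652461, plus strand). It had 202, 850, 939 and 241 counts, or levels of 5.89, 27.1, 23.7 and 12.8. Its E11.5 level was 21.8% of its highest, more than for Pou5f1 (11.9%) and Nanog (15.9%). The rise at E12.5 was 4.60-fold (log2 2.20, interval 1.98 to 2.43), followed by log2 changes of −0.19 (−0.33 to −0.06) and −0.87 (−1.08 to −0.67). Sox2 also works in Schwann cell precursors and neural tissue. The 9 genes of a glia and neuron list had no member past 2-fold higher and 4 lower at E12.5, and their summed level ran 67.9, 48.3, 44.1 and 42.9. Sox10, which defines these glia, was present at 201, 364, 389 and 167 counts, and the part of such cells in the Sox2 values was not tested.

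OCT4 binds an octamer, and OCT4 and SOX2 bind side by side on many of their targets, so the upstream sequences of the members that were in the RefSeq promoter table (build GRCm38.p6, the mm10 assembly) were searched on both strands for the octamer ATGCAAAT, its first 7 letters (ATGCAAA), the SOX motif CATTGT, and the composite CATTGTNATGCAAA, which contains ATGCAAA and CATTGT. The 250 bases before the start site were found for 6 members, Pou5f1, Nanog, Sox2, Utf1, Lin28a and Prdm1. The start site used for Prdm1 lay inside the counted gene, 69815 bases from its 5′ end, and that of Nanog 490 bases from it. The Prdm1 stretch is therefore not the one before the 5′ end of the counted gene. The full octamer was in none of these 6 stretches and in 1.6% of all. The 3 stretches with a match to one of the other motifs are shown so that the matches can be read in place, with the matched letters in capitals and each sequence 5′ to 3′ on the strand of its gene.
Nanog (chr6:122707239-122707488, plus strand): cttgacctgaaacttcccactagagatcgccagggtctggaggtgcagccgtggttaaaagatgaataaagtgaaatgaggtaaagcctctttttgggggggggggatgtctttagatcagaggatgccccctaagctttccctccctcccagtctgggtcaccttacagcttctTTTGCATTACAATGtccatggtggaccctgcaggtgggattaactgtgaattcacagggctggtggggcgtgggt
Sox2 (chr3:34649745-34649994, plus strand): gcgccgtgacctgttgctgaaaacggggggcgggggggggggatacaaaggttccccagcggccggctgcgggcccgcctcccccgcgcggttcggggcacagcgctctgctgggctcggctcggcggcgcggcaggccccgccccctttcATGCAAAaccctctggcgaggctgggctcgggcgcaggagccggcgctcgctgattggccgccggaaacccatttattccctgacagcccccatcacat
Lin28a (chr4:134018817-134019066, minus strand): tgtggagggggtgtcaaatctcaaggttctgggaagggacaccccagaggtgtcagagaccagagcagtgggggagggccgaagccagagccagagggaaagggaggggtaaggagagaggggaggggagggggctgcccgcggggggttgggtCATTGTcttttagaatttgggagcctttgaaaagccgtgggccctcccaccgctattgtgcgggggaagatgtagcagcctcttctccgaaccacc
The Nanog stretch held the composite 75 to 62 bases before the start, on the opposite strand. Among 32851 upstream stretches of this length, 2 held it, and both belonged to start sites of Nanog. ATGCAAA was in the Nanog and Sox2 stretches and in 4.12% of all stretches, CATTGT was in those of Nanog and Lin28a and in 10.7% of all, and the stretches of Pou5f1, Utf1 and Prdm1 held none of these motifs. The GC box GGGCGG was in those of Pou5f1, Sox2 and Utf1 and in 32.7% of all, and the AP-2 motif GCCNNNGGC was in that of Lin28a and in 13.7% of all. These matches describe the letters in the window and no binding was measured.

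Utf1, a chromatin-associated factor of undifferentiated cells and a known target of OCT4 and SOX2, lies on chromosome 7 (chr7:139943856-139945112, plus strand, 2 exon blocks). Its counts were 170, 1463, 1279 and 528, and its levels 4.96, 46.6, 32.3 and 28.05. It rose 9.40-fold at E12.5 (log2 3.23, interval 3.003 to 3.47). The log2 change was −0.53 (−0.64 to −0.42) at E13.5 and −0.19 (−0.34 to −0.04) at E14.5, so most of its decline from E12.5 lay in the earlier step.

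Lin28a, the RNA-binding protein that blocks maturation of the let-7 miRNAs, lies on chromosome 4 (chr4:134003330-134018816, minus strand, 5 exon blocks). It had 394, 994, 1479 and 418 counts, or levels of 11.497, 31.7, 37.4 and 22.2. Lin28a had the highest E11.5 level of the members relative to its own maximum, 30.8%, and the smallest rise at E12.5, 2.76-fold (log2 1.46, interval 1.29 to 1.64). It was 1 of 2 members whose log2 change at E13.5 was above 0, at 0.24 (0.12 to 0.35), and its change at E14.5 was −0.73 (−0.89 to −0.58).

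The miRNAs that Lin28a acts on share the seed, bases 2 to 8, that pairs with targets. Of the 23 mature miRNAs listed for let-7 and miR-98, 10 carry the seed GAGGUAG and account for nearly all the counts of the family. The 4 most counted are shown with the seed in capitals, as given by RefSeq.
let-7c-5p: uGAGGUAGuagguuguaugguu
let-7e-5p: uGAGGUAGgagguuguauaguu
let-7a-5p: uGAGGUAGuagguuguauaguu
let-7b-5p: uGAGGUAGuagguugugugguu
Counted from the 5′ end of let-7a-5p, let-7c-5p differs by A19G, let-7e-5p by U9G, and let-7b-5p by A17G and A19G. The counts were few. let-7c-5p had 33, 68, 99 and 98 counts from E11.5 to E14.5, let-7e-5p had 64, 52, 82 and 55, let-7a-5p had 20, 19, 28 and 35, and let-7b-5p had 0, 12, 36 and 25. The 10 miRNAs with the seed summed to 135, 175, 277 and 255 counts. Over the whole family, the share of mature miRNA counts was 0.585%, 2.08%, 3.38% and 0.261%. The totals at E11.5 (24435 counts) and E14.5 (101400) were dominated by miR-6236 and miR-6240, and were 6944 and 5011 without them. Without these 2, a choice made after the data were seen, the shares were 2.06% (interval 1.74 to 2.42), 2.81% (2.42 to 3.23), 4.52% (4.02 to 5.06) and 5.29% (4.68 to 5.94). The intervals of E13.5 and E14.5 overlapped. The order of the days turned with this choice, since the share of all mature miRNA counts was lowest at E14.5 and the share without the 2 miRNAs was lowest at E11.5, so no course of let-7 is set beside that of Lin28a. The miR-290 to miR-295 cluster, typical of pluripotent cells, had 5, 8, 9 and 4 counts, and the miR-302 and miR-367 cluster had 1, 0, 0 and 0, so no change of either was detectable at this depth. For a miRNA with 0 counts the upper limit is 3 counts, between 0.0758 CPM at E13.5 and 0.159 CPM at E14.5.

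Dppa3, also called Stella, protects maternal DNA methylation in the early embryo and is a classical marker of primordial germ cells. It lies on chromosome 6 near Nanog (chr6:122626317-122630272, plus strand, 5 exon blocks). Its counts were 106, 1062, 1499 and 641, with levels of 3.09, 33.8, 37.9 and 34.0. E11.5 was low and the 3 later libraries lay close together. Dppa3 had the largest rise of the members at E12.5, 10.9-fold (log2 3.45, interval 3.16 to 3.75), and the smallest change at E14.5 against E13.5, −0.14, with an interval from −0.27 to just under 0. E14.5 and E12.5 differed by 0.02 on the log2 scale, with an interval of −0.12 to 0.16.

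Dppa5a, a small RNA-binding protein of pluripotent cells, lies on chromosome 9 (chr9:78367052-78368199, minus strand, 3 exon blocks). It had 209, 1630, 1374 and 422 counts, or levels of 6.10, 52.0, 34.7 and 22.4. After a rise of 8.52-fold at E12.5 (log2 3.09, interval 2.88 to 3.31) it had log2 changes of −0.58 (−0.69 to −0.48) and −0.61 (−0.77 to −0.45) on the following 2 days. Neither step passed 2-fold, but E14.5 was past 2-fold lower than E12.5 (log2 −1.20, interval −1.36 to −1.05).

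Prdm1, or BLIMP1, the repressor that starts germ cell specification, lies on chromosome 10 (chr10:44437174-44528563, minus strand, 11 exon blocks). It had 269, 962, 1054 and 267 counts and levels of 7.85, 30.7, 26.6 and 14.2. Its course resembled that of Sox2, with a rise of 3.91-fold at E12.5 (log2 1.97, interval 1.77 to 2.17) and a log2 change of −0.89 (−1.09 to −0.70) at E14.5.

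Prdm14, which represses the somatic program and supports epigenetic reprogramming, lies on chromosome 1 (chr1:13113425-13127809, minus strand, 8 exon blocks). It was the least counted member, with 31, 200, 223 and 38 counts and levels of 0.905, 6.37, 5.63 and 2.02. Prdm14 rose 7.02-fold at E12.5 (log2 2.81, interval 2.27 to 3.41) and fell 2.75-fold at E14.5 (log2 −1.46, interval −2.00 to −0.96). Its log2 change at E13.5 was −0.18, with an interval that includes 0 (−0.46 to 0.10).

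Tfap2c, the AP-2 factor that acts downstream of Prdm1 in specification, lies on chromosome 2 (chr2:172545680-172558622, plus strand, 10 exon blocks). Its counts were 101, 470, 499 and 47, with levels of 2.95, 15.0, 12.6 and 2.50. E14.5 was the lowest library after TMM scaling, but its counting interval overlapped that of E11.5. The order of E11.5 and E14.5 depended on the scaling, since E14.5 was the lowest library for 1 member by TMM, for 2 by total counts (Prdm1 and Tfap2c) and for 6 in the deposited TPM (also Nanog, Sox2, Lin28a and Prdm14). Tfap2c rose 5.08-fold at E12.5 (log2 2.34, interval 2.03 to 2.67) and fell 4.98-fold at E14.5 (log2 −2.32, interval −2.78 to −1.89). Only 0.226% of all tested genes had a lower fold change in that step.

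The first comparison asks what differed between the genital ridge at the start of sex determination and the gonad a day later. All 10 members were past 2-fold higher at E12.5, against 8.64% of 19215 tested genes higher and 9.11% lower. The members' median log2 fold change was 2.73, and that of all tested genes was −0.004. Between 94.6% and 99.1% of tested genes had a lower fold change than a given member. Pou5f1, Dppa3, Dppa5a and Utf1 were the 4 members still called by the edgeR exact test at a preset biological coefficient of variation of 0.4, a spread that these data cannot estimate.

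The dissection changed between the same libraries. Of 8 mesonephros and nephric genes, 5 were past 2-fold lower at E12.5, with a summed level of 172 at E11.5 and 40.3 at E12.5. Six2, Wnt9b, Pax2 and Gata3 had 1004, 575, 1531 and 1078 counts at E11.5 and 10, 10, 60 and 84 at E12.5. Of 10 gonadal soma genes 8 were past 2-fold higher, with a list median of 1.47. The removal of the mesonephros and the passage of a day cannot be told apart in the members' rise.

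**Figure D2:**
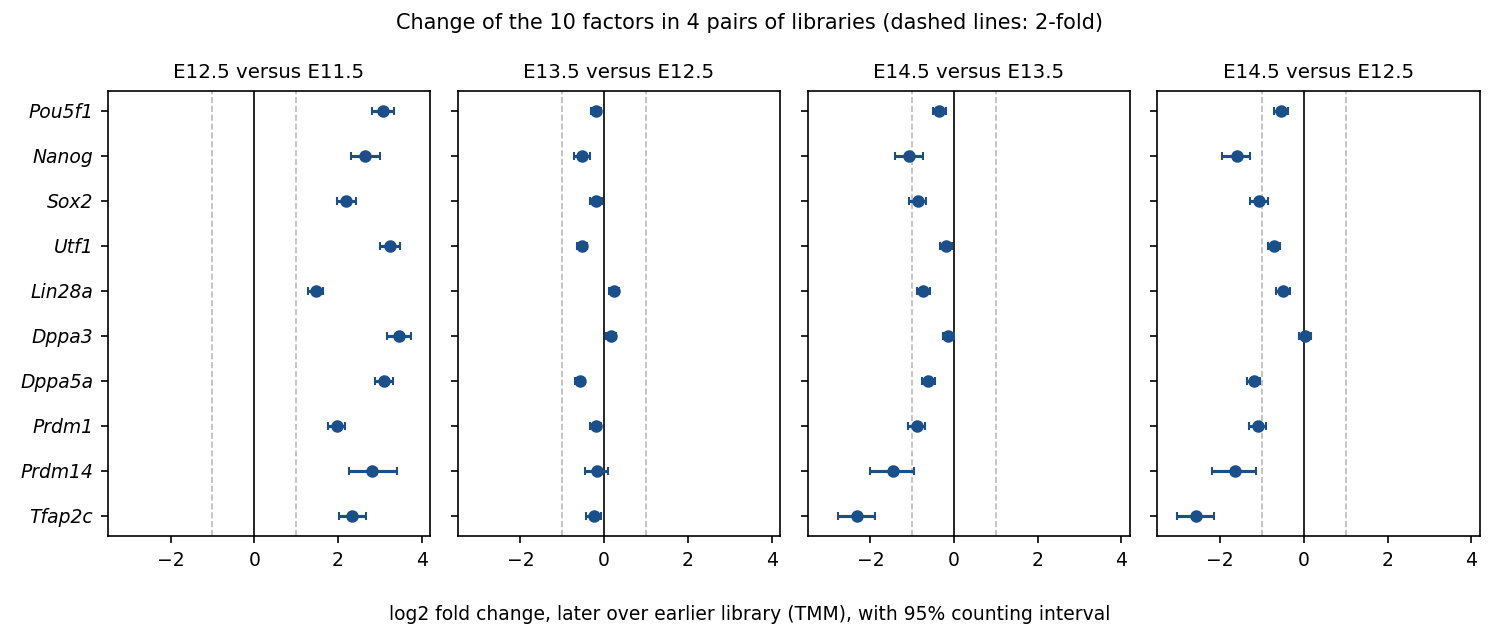
Log2 fold change of each factor (x axis, later over earlier library after TMM scaling) in the 4 pairs of libraries, with bars for the 95% counting interval and dashed lines at 2-fold. All 10 points lie past 2-fold at E12.5 versus E11.5, none does at E13.5 versus E12.5, and at E14.5 versus E13.5 they spread from −0.14 for Dppa3 to −2.32 for Tfap2c.

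The second comparison, E13.5 with E12.5, covers the first day after sex determination with the same dissection. No member passed 2-fold in either direction, where 3.28% of 19152 tested genes were higher and 1.98% lower. The members' median was −0.20 against 0.002 for all tested genes. The counting intervals of 7 members lay below 0, those of Lin28a and Dppa3 lay above 0, and that of Prdm14 included 0. The lowest were Dppa5a at −0.58, Nanog at −0.53 and Utf1 at −0.53.

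The third comparison, E14.5 with E13.5, covers a day on which female germ cells are on the way into meiosis. The meiosis gene Stra8 had already gone from 3 to 430 counts between E12.5 and E13.5. Nanog, Prdm14 and Tfap2c, 3 of 10 members, were past 2-fold lower, against 2.51% of 18992 tested genes, and none was past 2-fold higher, against 6.44%. The members' median was −0.80, and the intervals of all 10 lay below 0. The order from the least to the most lowered was Dppa3, Utf1, Pou5f1, Dppa5a, Lin28a, Sox2, Prdm1, Nanog, Prdm14 and Tfap2c. On total counts alone all 10 passed 2-fold, as did most genes tested, and at a biological coefficient of variation of 0.4 none was called.

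The comparison of E14.5 with E12.5 joins both of these steps and shares its libraries with them. Nanog, Sox2, Dppa5a, Prdm1, Prdm14 and Tfap2c, 6 of 10, were past 2-fold lower, against 3.33% of 18704 tested genes, and no member was higher, against 8.44%. The intervals of Sox2 (−1.07, −1.28 to −0.86) and Prdm1 (−1.10, −1.30 to −0.90) include changes short of 2-fold. The members' median was −1.09. Pou5f1 (−0.55), Lin28a (−0.50), Utf1 (−0.72) and Dppa3 (0.02) did not pass 2-fold.

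Ratios between genes inside a library need no scaling, so they show which members changed relative to each other. Of the 45 pairs of members, the ratio changed beyond a counting interval widened for 45 pairs in 23 pairs at E12.5, in 20 at E13.5 and in 26 at E14.5, each against the day before. At E14.5 the ratio of Tfap2c to Dppa3 changed most, from 0.333 to 0.073 (log2 −2.18, 95% interval −2.67 to −1.73). The ratio of Utf1 to Dppa3 was 0.853 at E13.5 and 0.824 at E14.5, a log2 change of −0.05 (−0.25 to 0.15). By the widened interval, Pou5f1, Dppa3 and Utf1 were not separated from each other in that step, nor were Nanog, Sox2, Lin28a and Prdm1. These sets were not distinct, since Dppa5a was not separated from Pou5f1, Nanog, Sox2, Lin28a or Prdm1. The 95% interval of Pou5f1 to Dppa3, −0.43 to −0.003, lay just below 0.

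Ddx4, the RNA helicase of germ cells also known as Vasa, served as a germ cell reference within each library, with 97, 1726, 2960 and 1176 counts. Relative to Ddx4 all 10 members were lower at E12.5 than at E11.5, by a median of −1.55 on the log2 scale, and all 10 were lower again at E13.5, by a median of −0.64. Both steps lay below 0 beyond their counting intervals for every member. Pou5f1 had 1.42, 0.613, 0.395 and 0.366 counts per Ddx4 count in the order of the days. From E13.5 to E14.5 the ratios of Pou5f1 (−0.11, interval −0.30 to 0.08), Utf1 (0.06, −0.12 to 0.23) and Dppa3 (0.11, −0.06 to 0.27) had intervals that include 0, and the other 7 were lower. Ddx4 itself rose 19.4-fold at E12.5 (log2 4.28), so these ratios depend on a reference that was not constant.

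Sall4, a zinc finger factor of the pluripotency network with 617, 2454, 2717 and 700 counts, was set as another reference. Relative to Sall4, 6 of 10 members were higher at E12.5 than at E11.5 beyond their counting intervals, with a members' median of 0.61. Only Lin28a was lower (−0.66), and the remaining intervals included 0. The direction of this step thus depended on the reference, and Sall4 was not constant either. At E13.5 against E12.5, 3 members were lower relative to Sall4 and 2 were higher. The ratio of Sox2 to Sall4 was 0.327, 0.346, 0.346 and 0.344 from E11.5 to E14.5, and the ratio of Prdm1 to Sall4 was 0.436, 0.392, 0.388 and 0.381. No step of either ratio left its counting interval around 0. Relative to Sall4 the ratio of Dppa3 climbed from 0.172 through 0.433 and 0.552 to 0.916, and that of Tfap2c went from 0.164, 0.192 and 0.184 to 0.067.

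In TPM, which divides by exon length and allows genes to be compared, Dppa5a was the most abundant member up to E13.5, with 14.7 TPM at E11.5, 152 at E12.5 and 111 at E13.5. Dppa3 and Utf1 followed at 76.4 and 75.6 TPM at E12.5, and their counting intervals overlapped. Pou5f1 was next at 44.0 TPM, then Sox2 at 20.7, Lin28a at 15.0 and Nanog at 10.8. The specification factors were the lowest, with 7.73 TPM for Tfap2c, 6.94 for Prdm1 and 3.70 for Prdm14, and the intervals of Tfap2c and Prdm1 overlapped. At E14.5 Dppa3 led with 27.4 TPM and Dppa5a had 23.4, with overlapping intervals. The number of neighbours in this order whose intervals overlapped was 6, 2, 3 and 4 of 9 in the order of the days.

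**Figure D3:**
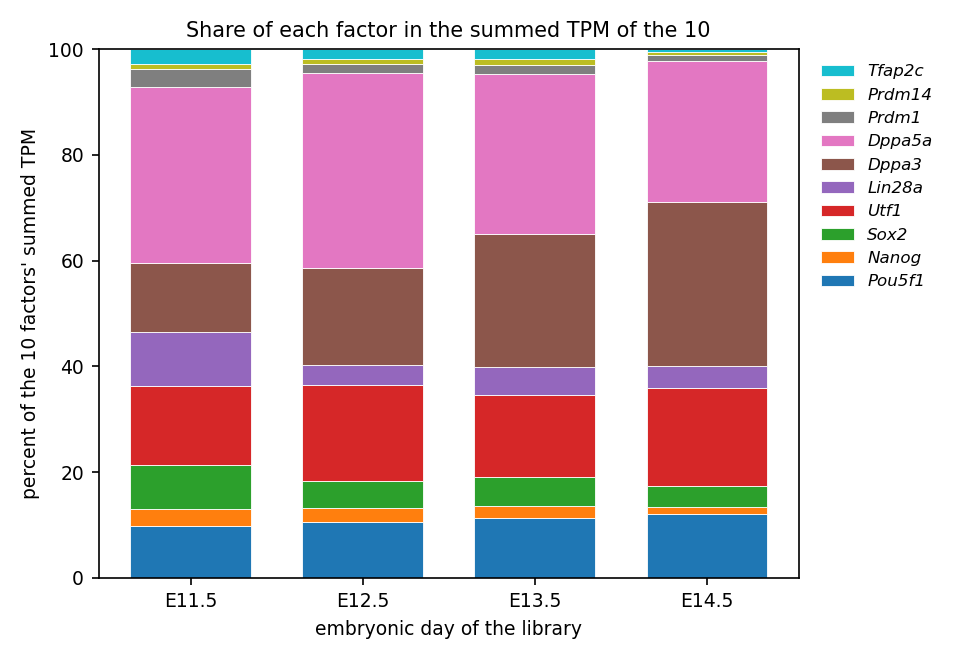
Percent of the summed TPM of the 10 factors (y axis) taken by each factor in each library (x axis, embryonic day). Dppa3 widens from 12.997% to 31.0% between E11.5 and E14.5 while Tfap2c narrows from 2.83% to 0.52%, and Dppa5a, the largest share up to E13.5, ends at 26.6%.

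As shares of the members' summed TPM, Dppa3 took 12.997%, 18.5%, 25.3% and 31.0% from E11.5 to E14.5. Dppa5a took 33.3%, 36.9%, 30.2% and 26.6%. Lin28a went from 10.2% at E11.5 to 3.64% at E12.5 and then 5.25% and 4.26%, and Sox2 from 8.41% to 5.02%, 5.38% and 3.96%. Pou5f1 kept close to a constant share, at 9.78%, 10.6%, 11.4% and 12.1%.

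The wider pluripotency network was described with 24 further genes, 22 of which passed the filter in each comparison. At E12.5, 15 were past 2-fold higher and 2 lower, with a median of 2.04. Dppa2 and Dppa4, which prime chromatin in pluripotent cells, were higher by 3.23 and 3.19 on the log2 scale, L1td1, an RNA-binding protein of stem cells, by 3.16 and Tcl1, a cofactor of AKT, by 3.08. Tbx3, a T-box factor used in many organs, had 4237 counts at E11.5 and 512 at E12.5 (log2 −2.92), and Lin28b, the paralogue of Lin28a, had 1008 and 421 (log2 −1.13). Thus Lin28a and Lin28b moved in opposite directions in this step. At E13.5 none of the 22 was past 2-fold higher and 1, Tdgf1, was lower (54 and 30 counts, log2 −1.18).

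At E14.5 against E13.5, 4 of the 22 were past 2-fold lower and 1 higher, with a median of −0.51. Among them L1td1 (−1.58) and Esrrb (−1.24), an orphan nuclear receptor of naive pluripotent cells, were lower, as was the NODAL co-receptor gene Tdgf1 at 30 and 5 counts (−1.48). Dppa4 was the exception and was past 2-fold higher, with 59, 493, 491 and 476 counts over the 4 days (log2 1.04, interval 0.86 to 1.23). Dppa4 thus lay above every one of the 10 members in that step after TMM scaling, but on total counts alone its log2 change was −0.03.

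**Figure D4:**
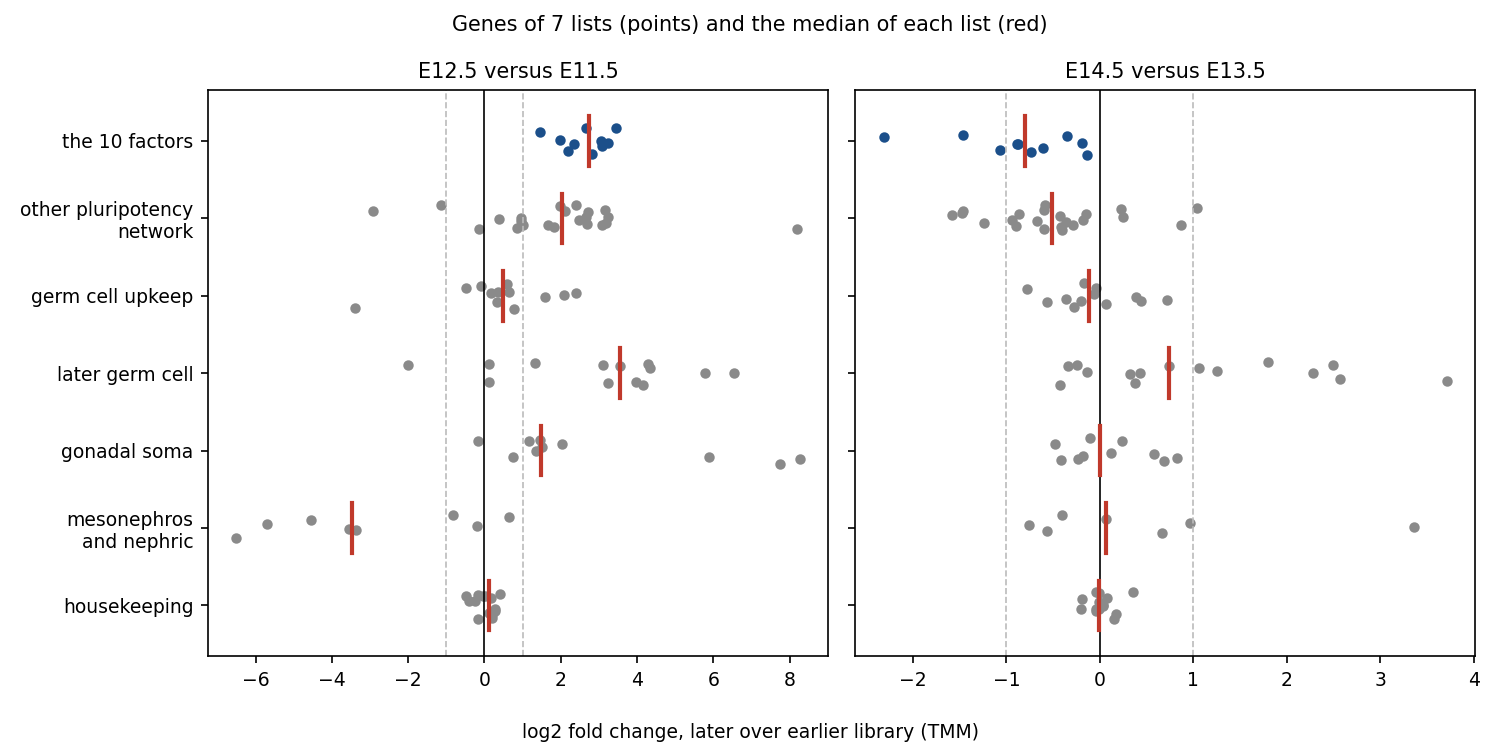
Log2 fold change (x axis, later over earlier library after TMM scaling) of the tested genes of 7 lists (points, y axis by list) and the list medians (red lines) at E12.5 versus E11.5 and E14.5 versus E13.5. The 10 factors (blue) have medians of 2.73 and −0.80, the later germ cell list 3.56 and 0.74, and the housekeeping list 0.12 and −0.01. With counts below 3 set to that floor, the later germ cell median at E12.5 is 3.23.

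Genes that keep up primordial germ cells and genes of later germ cells were set beside the members. Of 12 genes of germ cell upkeep, 3 were past 2-fold higher at E12.5, Dnd1 (2.41), Alpl (2.09) and Elavl2 (1.60), and Sall1, which is also a kidney gene, was lower (−3.39). None of the 12 passed 2-fold in any later comparison. Kit, the receptor for stem cell factor, had 1764, 2506, 2922 and 799 counts, with log2 changes of 0.63, −0.12 and −0.78. Of 15 later germ cell genes, 10 of 13 tested were past 2-fold higher at E12.5 and 1 was lower. The largest were Dazl, an RNA-binding protein needed for germ cells to commit to gametogenesis, at 6.55 (53 and 4555 counts), Mael, which silences transposons, at 5.78, Hormad1, a meiotic chromosome axis protein, at 4.35, and Ddx4 at 4.28. Taf7l was lower (−2.00).

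At E14.5 the later germ cell list and the members moved apart. Of 15 tested genes of that list, 7 were past 2-fold higher than at E13.5 and none was lower, with a median of 0.74, where the members had none higher and 3 lower. Sycp3, a component of the synaptonemal complex, went from 202 to 331 counts (log2 1.80), Tex101, a germ cell surface protein, from 59 to 165 (2.57), Taf7l from 135 to 359 (2.50) and Tdrd9, a piRNA pathway helicase, from 69 to 158 (2.28). On total counts alone these 4 changes were 0.72, 1.49, 1.42 and 1.20, whereas Sycp1 went from 1.06 by TMM to −0.02. Stra8, the gatekeeper of meiosis, had 0, 3, 430 and 272 counts. Its log2 change at E13.5 was 6.77 with an interval of 5.27 to 9.11, and it rests on an E12.5 count at the floor of 3. Ddx4 (−0.24) and Dazl (−0.34) did not pass 2-fold at E14.5.

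**Figure D5:**
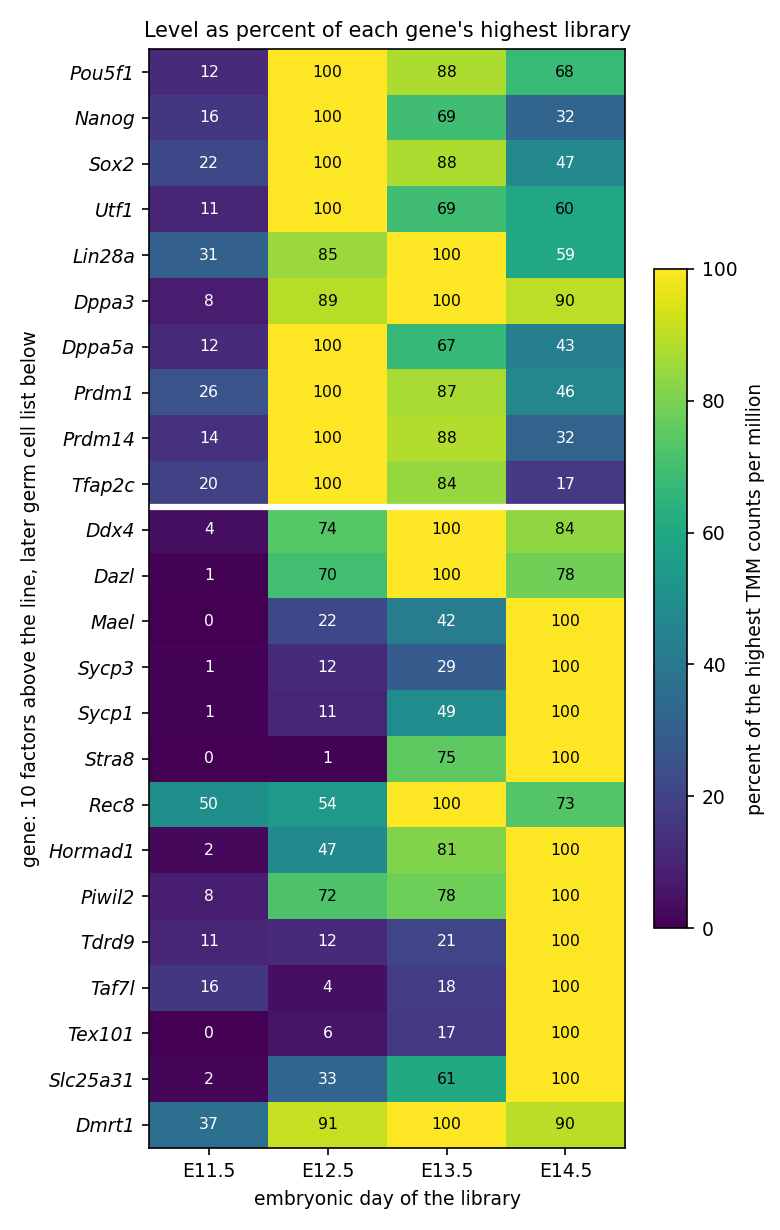
Level in each library (x axis) as percent of the highest library of the gene (colour and numbers) for the 10 factors (above the white line) and 14 later germ cell genes with at least 100 counts (below). The factors are highest at E12.5 or E13.5, whereas 10 of the later genes, Sycp3 and Tex101 among them, are highest at E14.5 after TMM scaling.

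Nanog and Dppa3 lie 76.7 kb apart on chromosome 6, a region with further germ cell genes. Of 7 other genes around them, Gdf3, a ligand of the TGF-beta family, was past 2-fold higher at E12.5 (16 and 97 counts, log2 2.72), and C3ar1 and Clec4a2, genes of myeloid cells, were past 2-fold lower. Slc2a3 (0.37), Foxj2 (0.38), Necap1 (0.12) and Apobec1 (−0.87) did not pass 2-fold. At E14.5 none of the 6 tested neighbours passed 2-fold, with a median of 0.02.

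Among 14070 genes with at least 100 counts in a library, those whose course over the 4 libraries was closest to each member were found by the root mean square difference of log2 levels centred on each gene's mean. Sall4 was closest to Sox2 (0.03) and among the 3 closest to Prdm1 (0.08). Nodal, a TGF-beta ligand, was closest to Dppa5a (0.03) with 17, 136, 115 and 33 counts, followed by Zfp42, or REX1, (0.14) and Gdf3 (0.15). Rhox6 (0.10), Tbx4 (0.24) and Rhox9 (0.27) were closest to Tfap2c, and Rhox5 (0.12) and Ap3b2 (0.15) were among those closest to Prdm14, where the Rhox genes are X-linked homeobox genes of the reproductive tract and germ line. Ptk2b (0.02) was closest to Pou5f1, AU015836 (0.07), Gstm6 (0.07) and Foxr1 (0.08) to Dppa3, D7Ertd143e (0.10) to Nanog, Col9a2 (0.10) to Utf1, Crip3 (0.03) to Lin28a and Glt1d1 (0.07) to Prdm1. With 4 libraries such likeness is a description. Among the members themselves, Sox2 and Prdm1 were the closest pair (0.11), and Dppa3 and Tfap2c were the farthest apart (1.34).

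The authors state that the RNAs were identified from uniquely mapped reads. How reads shared by near-identical copies were handled is not stated further, which bears on some members. Transcripts of 10 other genes matched Dppa5a over at least 100 bases at 90% identity or more. The longest match was Pigp, over 417 bases at 95.9% identity, and Pigp had 474, 405, 594 and 353 counts, a course unlike that of Dppa5a. The copy Dppa5b had 5, 11, 23 and 4 counts. Dppa3 had 3 such copies, including Dppa3-ps at 98.2% over 451 bases, and Nanog had Nanog-ps1 at 97.6% over 245 bases besides a stretch shared with transcripts of many genes. Of Sox2, Utf1, Tfap2c, Prdm1 and Prdm14 no such match was found, and no other counted feature overlapped an exon of any member.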

How the data were processed

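The authors depleted ribosomal RNA with probes and RNase H from 1 μg of RNA per pool, tailed and reverse transcribed it with UMIs, aligned reads to mm10 with STAR, removed duplicates with UMI-tools and counted reads per feature with featureCounts. The counts used here are those deduplicated counts as deposited. The authors computed TPM and RPKM from the same counts and exon lengths, and the deposited TPM matched a recalculation to within 5.82e-11, while the RPKM was not analysed further. Tool versions and the annotation release are not given in the sources used here.

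The members and gene lists were chosen with earlier results of these data known. For 4 pairs of libraries, genes kept by edgeR's filterByExpr were scaled by pairwise TMM (prior count 0.125), and a change of at least 2-fold was the call, since 1 library per day allows no test. Intervals are 95%, exact Clopper-Pearson for fold changes and shares, exact Poisson for levels, and exact conditional for ratios between genes. The floor was 3 counts, 0.0758 to 0.159 TMM-scaled CPM. The scripts were tested on simulated data. All 10 members were named. Of other lists, a gene past 2-fold was named if its higher library had 100 counts or more, up to 4 in each direction, and the 3 nearest patterns at most per member. Tdgf1, Gdf3, Clec4a2, Kit, Sox10, Stra8 at E13.5, the genes beside Nanog that did not pass 2-fold, and the relatives and copies of members fall outside this rule, having been picked once the values were known. Some genes that the rule names are not reported here. Alternatives were other scalings, prior counts, filters and limits, and preset dispersions. Upstream and miRNA sequences came from RefSeq tables (GRCm38.p6), and similar transcripts from blastn 2.17.0 on GENCODE mouse transcripts of the same assembly. Calculations used R 4.3.3, edgeR 4.0.16, DESeq2 1.42.0, Python 3.11.15, numpy 2.4.6, pandas 2.3.3, matplotlib 3.10.9 and scipy 1.17.1.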

Additional observations from a re-analysis of the deposited data

How the results depend on the processing

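The count of 10 members past 2-fold at E12.5 was the same under the other scalings, a prior count of 2, both filters and a biological coefficient of variation of 0.1, was 8 past 4-fold, and was 4 at a coefficient of 0.4. The count of 0 at E13.5 against E12.5 was the same under all alternatives. At E14.5, total counts alone and the ratio of deposited TPM each put all 10 members past 2-fold lower than E13.5, and all 10 lower than E12.5. Past 4-fold, 1 member was lower in each of these comparisons, and at a coefficient of 0.4 there were 0. Dppa3 at E14.5 against E12.5 was 0.02 by pairwise TMM and −0.01 by DESeq2 size factors. Of the recalculated fold changes of members, 52 left the counting interval of the TMM value, 188 did not, and no called change turned its sign.

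Over all tested genes, the TMM counts past 2-fold were 3412 at E12.5, 1009 at E13.5, 1700 at E14.5 against E13.5 and 2202 at E14.5 against E12.5. In the same order, no filter gave 10244, 7495, 8740 and 9187, a coefficient of 0.4 gave 286, 1, 31 and 72, and a limit of 4-fold gave 1247, 151, 438 and 627. At least 10 counts in both libraries gave 2253 and 514 for the earlier 2, and a coefficient of 0.1 gave 360 at E13.5 and 925 at E14.5 against E13.5. The ratio of TPM gave 3553 at E12.5, of which 2299 were higher, against 1661 by TMM. At E14.5 against E13.5 most calls by total counts were lower, where most calls by TMM were higher. Against E13.5 total counts gave 11921, with 323 higher and 11598 lower, and TPM gave 17119, where TMM had 1223 higher and 477 lower. Against E12.5 these were 10744 and 15720. The median of all genes moved by −1.07 and −1.63 against E13.5 under these scalings, which moves every gene of a library together. No paired analysis was possible because each day has 1 library. TMM over the 4 libraries was added after seeing the data and changed no count of members.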

Other observations

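Relatives of the members, chosen after their values were seen, took other courses. Tfap2a and Tfap2b, paralogues of Tfap2c, had 300 and 349 counts at E11.5, then 6, 17 and 10 and 7, 13 and 10. Pou5f2 had 44, 56, 91 and 32 counts, none of its steps past 2-fold. Sox2ot, the transcript that spans Sox2, had 6, 12, 32 and 11 counts, where Sox2 had 202 to 939.

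The remaining lists describe the other cells of the pools. Of the tested macrophage genes, 4 of 5 were past 2-fold lower at E12.5, with Cx3cr1, Csf1r and Mrc1 at log2 changes of −1.45, −1.26 and −1.17, and their summed level was 59.7, 26.9, 25.9 and 34.8. None of 6 endothelial genes passed 2-fold in any comparison, and their summed level was 403, 379, 287 and 261. Gonadal soma genes summed to 697, 1574, 1741 and 1922, with Amh, the hormone of Sertoli cells, at 45, 8900, 10299 and 5683 counts and Cyp17a1, an enzyme of androgen synthesis, at 5, 1437, 10503 and 8720. Of the glia and neuron genes, Ednrb (−1.98) and Tubb3 (−1.55) were among those past 2-fold lower at E12.5, and Tubb3 was higher again at E13.5 (1.22). None of 15 housekeeping genes passed 2-fold in any comparison.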
